A study of Rattus norvegicus with 32 samples.

Results

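The genes that make, inactivate and sense histamine were followed in hippocampal RNA of 32 adult Sprague-Dawley rats at P65. The 5 genes were Hdc (ENSRNOG00000010262), Hnmt (ENSRNOG00000005223), Hrh1 (ENSRNOG00000007420), Hrh2 (ENSRNOG00000018260) and Hrh3 (ENSRNOG00000061153), taken by symbol from the 32883 genes listed in each of the count tables. Each symbol stood in a single row of both tables. They were chosen by symbol alone, with no threshold on a measured value, but the family was put together after earlier results of these libraries were known. The tests below therefore describe these libraries and are no independent evidence.

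The study asked how early-life iron deficiency and prenatal choline leave their mark on the adult hippocampus. Male rats were sequenced in batch I and female rats in batch II, so sex and sequencing batch cannot be told apart, and diets were compared within a sex only. In males the 4 groups, each of 4 rats, were controls kept iron-sufficient throughout (IS), the same with choline given prenatally (ISch), rats that had been iron-deficient early in life (FID), and such rats whose dams also received choline (FIDch). In females the labels name the matching groups IS, ISch, ID and IDch, again with 4 rats each. By the methods, iron deficiency came from the diet of the pregnant and nursing dam, and the offspring studied ate an iron-sufficient diet afterwards. The methods describe males only, with a single male per litter, so this feeding history is theirs. The litters of the females were not stated in the sources used here. All groups were the same age and strain.

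Histamine is formed from histidine by histidine decarboxylase, the product of Hdc. In the brain the main source is a small group of neurons in the tuberomammillary nucleus of the hypothalamus, whose axons reach the hippocampus, and mast cells are a further source. Histamine N-methyltransferase, encoded by Hnmt, inactivates the amine inside cells. Of the receptors, H1 (Hrh1) couples to Gq and phospholipase C, H2 (Hrh2) couples to Gs and raises cyclic AMP, and H3 (Hrh3) couples to Gi and Go and, on nerve endings, holds back the release of histamine and of other transmitters. In a piece of bulk tissue, fewer cells of a type and less RNA per cell cannot be told apart.

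Hdc and Hrh3 held the pairwise differences with an adjusted p under 0.05, so the 250 bases before their RefSeq starts (build GRCr8) are shown. Of the 5 genes, 4 had an entry in the RefSeq promoter table used. Each sequence is given 5′ to 3′ on the strand of the gene, and capitals mark GGGCGG and CCAAT on either strand. The Hdc window lies at chr3:134318705-134318954 and the Hrh3 window at chr3:187574260-187574509, both on the minus strand.
Hdc: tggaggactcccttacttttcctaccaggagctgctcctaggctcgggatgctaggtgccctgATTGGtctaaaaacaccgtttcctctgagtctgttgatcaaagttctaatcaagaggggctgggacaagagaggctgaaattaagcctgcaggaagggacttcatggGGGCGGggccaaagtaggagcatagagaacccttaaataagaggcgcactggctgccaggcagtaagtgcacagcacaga
Hrh3: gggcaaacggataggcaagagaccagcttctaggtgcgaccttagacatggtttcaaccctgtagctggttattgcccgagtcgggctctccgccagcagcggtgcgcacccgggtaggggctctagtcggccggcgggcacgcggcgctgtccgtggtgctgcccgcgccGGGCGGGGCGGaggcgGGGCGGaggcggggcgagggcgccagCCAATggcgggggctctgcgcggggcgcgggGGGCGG
The Hdc window held 1 GGGCGG, beginning 80 bases before the start, and 1 CCAAT on the opposite strand, beginning 187 bases before it. The Hrh3 window held 4 GGGCGG, the nearest beginning 6 bases before the start and 2 of them overlapping, and 1 CCAAT on the strand of the gene. Of 33469 windows of the same length, 30.5% held GGGCGG on either strand and 34.0% held the other motif. TATAAA (12.9% of all windows) and TGACGTCA (1.59%) were in neither. GC content was 52.4% for Hdc and 73.6% for Hrh3.

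Libraries held 3515806 to 9517503 counts in males and 18439999 to 26616318 in females. At this depth 3 counts, the most that a count of 0 allows at 95% confidence, correspond to 0.315 to 0.853 CPM (counts scaled to a common library total) in males and 0.113 to 0.163 CPM in females, and cover counting error only. Levels are given as CPM scaled by edgeR's TMM factors, separately for each sex. They were not divided by gene length and do not rank the genes against each other. Hippocampal principal neuron markers summed to 4440 to 5160 CPM in male and 4600 to 5610 CPM in female libraries, and none of them was at 0 throughout. A pair of libraries stood apart in markers of neighbouring tissue. Female IS replicate 3 held 2747 counts of Pomc, a gene of hypothalamus and pituitary, and male FID replicate 4 held 2914 counts of Ttr, a gene of choroid plexus. Choroid plexus markers summed to 7.29 to 401 CPM in male FID, with a median of 14.2 CPM. The other male groups ran from 3.28 to 7.49 CPM.

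Hrh3 was read with 277 to 779 counts in male and 677 to 1681 in female libraries. Hrh1 ranged from 34 to 101 and from 136 to 306 counts, Hnmt from 23 to 93 and from 101 to 200, and Hrh2 from 25 to 62 and from 75 to 160, in the same order. Hdc was read with 1 to 14 counts per male library, close to the floor of 3 counts, and 10 to 63 per female library.

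**Figure D1:**
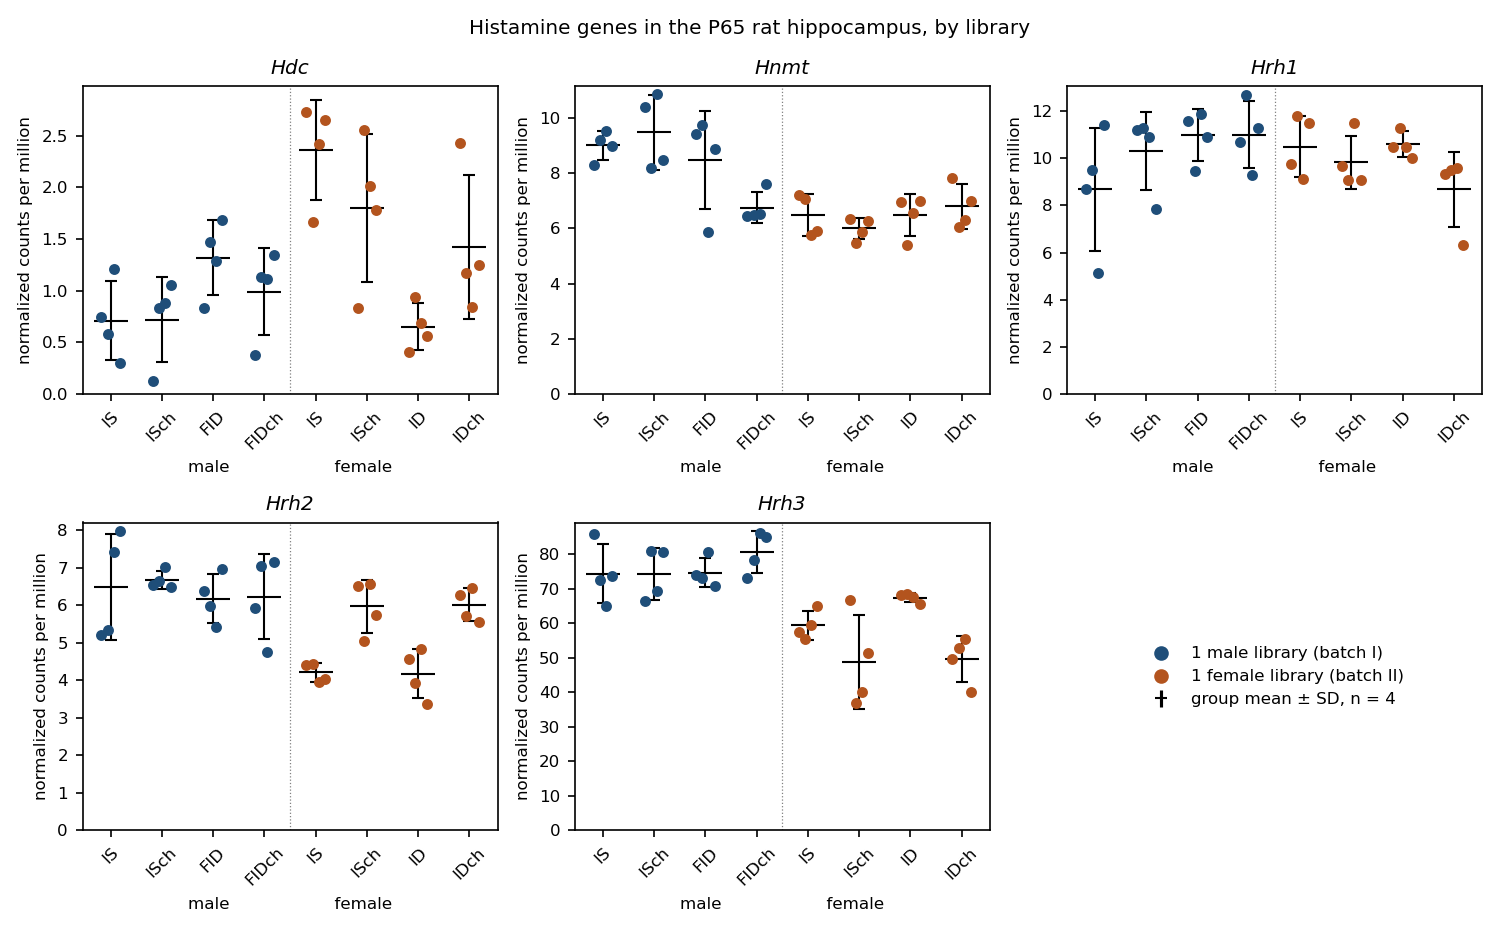
TMM-normalized CPM (vertical axes, from 0) of the 5 histamine genes in every library, by diet group (horizontal axes), with males in blue and females in orange. Black bars are group means ± SD of 4 rats. Hdc in the 4 female ID libraries lies at 0.406 to 0.941 CPM, under the 4 female IS libraries at 1.66 to 2.73 CPM. Hrh2 in both female choline groups lies above the groups without choline, and the share of all genes that separate so was not counted.

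The study calls a gene where the absolute log2 fold change exceeds 0.2 and the unadjusted p is under 0.05, and this criterion was kept. In females Hdc was lower in ID than in IS, Hrh2 was higher in both choline groups, and Hrh3 was lower in IDch. In males only Hnmt met the criterion, in FIDch against IS. Of the 4 genes tested in each male comparison with IS, 0 met it in ISch (8.06% of all genes did), 0 in FID (4.62%) and 1 in FIDch (6.12%), and of the 5 tested in FIDch against FID, 0 did (13.0%). No male call had an adjusted p under 0.05, by edgeR's quasi-likelihood test or by DESeq2, beside 0.208%, 0%, 0.131% and 1.28% of all genes by edgeR in the same order. At an unadjusted p under 0.05 with no limit on the fold change the male counts were 0, 0, 1 and 0, beside 10.5%, 5.68%, 7.89% and 17.8% of all genes.

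In females all 5 genes were tested. The criterion was met by 1 gene in ISch against IS (10.3% of all genes), 1 in ID against IS (6.47%), 3 in IDch against IS (8.98%) and 3 in IDch against ID (12.7%). With an adjusted p under 0.05 there were 0, 1, 0 and 1 of them by edgeR's quasi-likelihood test, namely Hdc in ID against IS and Hrh3 in IDch against ID, beside 2.54%, 0.191%, 0.907% and 2.28% of all genes. DESeq2 gave 1, 1, 1 and 2. Where edgeR gave 0, the unadjusted p alone was under 0.05 for 1 gene in ISch and 3 genes in IDch against IS, beside 16.3% and 12.9% of all genes. Groups did not overlap for 1, 2, 2 and 3 genes (10.1%, 6.49%, 7.80% and 11.9% of all genes). In males this was so for 0, 0, 1 and 0 genes (6.15%, 3.52%, 5.32% and 10.8%). The median log2 fold change of the 5 genes in females was -0.11, 0.00, -0.26 and 0.06, beside medians near 0 over all genes tested. Every comparison with IS used the same IS libraries of that sex, and the 2 comparisons of IDch the same IDch libraries.

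Hdc, the gene for the enzyme that makes histamine, was lower in the female ID group than in female IS. The female IS libraries held 54, 43, 55 and 63 counts, or 2.73, 1.66, 2.42 and 2.65 CPM. The female ID libraries held 10, 18, 13 and 14 counts, or 0.406, 0.941, 0.684 and 0.564 CPM. The groups did not overlap, and the highest ID library lay under the lowest IS library. The means were 2.36 ± 0.486 and 0.649 ± 0.226 CPM (SD, n = 4), a 3.64-fold lower level in ID. With edgeR's quasi-likelihood test the log2 fold change was -1.88 (SE 0.27, 95% interval -2.47 to -1.28), with a Benjamini-Hochberg adjusted p of 0.0163 over all 14632 genes tested, where it ranked 13 by p. The log2 fold change stayed between -2.10 and -1.70 in all 16 alternative fits, and the adjusted p was under 0.05 in 10 of them. Leaving out female IS replicate 1 or 4 or female ID replicate 1 or 4 brought it to 0.0626, 0.0537, 0.0533 and 0.0654. It was 0.0948, the highest, with the 4 female groups in a single fit, and 0.0651 with the replicate number as a block. Without female IS replicate 3, the library with high Pomc, the log2 fold change was -1.87 (adjusted p = 0.0255).

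Mast cell and hypothalamic transcripts were read beside this difference. Of the 12 mast cell markers, 9 had a row in the table. Cma1 and Tpsb2, mast cell proteases, were at 0 in every female library, Cpa3 had at most 2 counts and Mcpt2 at most 1. Kit, which neurons also express, made up nearly all of that list's sum, and the list without Kit summed to 0.792 to 1.21 CPM in female IS and 0.474 to 0.806 CPM in female ID. The 7 hypothalamic markers other than Pomc summed to 1.85 to 4.21 CPM in female IS and 2.22 to 3.05 CPM in female ID. The part of either tissue source in the Hdc difference was not tested.

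The female choline groups lay between IS and ID for Hdc. Female ISch libraries were at 0.832, 2.56, 2.01 and 1.78 CPM, and female IDch libraries at 2.43, 1.17, 0.843 and 1.25 CPM. Each group spread widely, with 17 counts in the lowest and 62 in the highest of these 8 libraries, and each overlapped its neighbours in the order ID, IDch, ISch, IS. In IDch against ID, Hdc was higher by 1.15 on the log2 scale (SE 0.38, adjusted p = 0.14), which met the criterion. This call held in all 15 alternatives that gave Hdc a p, of 16 run, although 1 IDch library lay inside the ID range. Against IS, IDch was lower by -0.72 (SE 0.31, adjusted p = 0.36), and this call was lost, with log2 fold changes from -0.71 to -0.54, without female IS replicate 1, 3 or 4 or female IDch replicate 2, 3 or 4. ISch against IS had a log2 fold change of -0.40 (interval -1.06 to 0.26, adjusted p = 0.557), not distinguishable from the spread between rats. Across the 4 female groups Hdc differed with F = 8.85 (adjusted p = 0.0277 over 14975 genes). The adjusted p of this joint test rose to between 0.0563 and 0.0886 when female IS replicate 1 or 4 or female ID replicate 1, 3 or 4 was left out.

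In males Hdc was too low for the expression filter in every comparison with IS. Male IS libraries held 6, 4, 8 and 2 counts, ISch 1, 7, 7 and 10, FID 6, 14, 11 and 14, and FIDch 3, 4, 10 and 9. Male FID replicate 4, the library with high Ttr, had the highest Hdc of the males at 1.68 CPM. The part of choroid plexus tissue in the male Hdc values was not tested. The FID mean of 1.32 ± 0.362 CPM stood above the IS mean of 0.707 ± 0.384 CPM (SD, n = 4), and the groups overlapped. The difference of 0.612 CPM had p = 0.057 by a 2-sided exact permutation test, whose smallest p with 4 rats against 4 is 0.029. Fitted without the filter, the log2 fold change was 0.90 (SE 0.44, adjusted p = 0.789) and missed the criterion. Where genes with at least 1 CPM in 4 libraries were kept, it was again 0.90 (SE 0.40, adjusted p = 0.794) and met it. With the default filter Hdc was tested and reached the criterion without male IS replicate 3 (1.26, adjusted p = 0.496) or without male FID replicate 1 (1.05, adjusted p = 0.804). It was also tested, and missed the criterion, without male IS replicate 2 (0.82, adjusted p = 0.792) or replicate 4 (0.66, adjusted p = 0.82). It was not tested without male IS replicate 1 or without male FID replicate 2, 3 or 4. In the fits with 1 library left out, Hdc passed the filter only through FID libraries, where it was highest. Calls in those fits are therefore no support for a difference. The exact p was 1.0 for ISch and 0.37 for FIDch against IS, and FIDch against FID gave -0.48 on the log2 scale (SE 0.38, adjusted p = 0.548).

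In a joint model of the 16 libraries concerned, the estimated effect of early iron deficiency on Hdc differed between the sexes, but not in most alternatives. The female effect minus the male effect was -2.80 on the log2 scale (SE 0.49, adjusted p = 0.047 over 15138 genes). Only 0.0396% of all genes, 6 in number, had an adjusted p under 0.05 for this difference. The adjusted p ran from 0.000151 to 0.18 over 22 alternatives and was 0.05 or more in 14 of them. Those 14 include the fits that left out male IS replicate 1, 2 or 4, male FID replicate 2, 3 or 4, female IS replicate 1, 3 or 4, or female ID replicate 1, 3 or 4. Without male FID replicate 4, the library with high Ttr, the sex difference was -2.65 (adjusted p = 0.18). The male counts behind the sex difference were low, and the filter removed Hdc in male FID against IS alone. Hdc passed the filter in the joint model, which also held the deeper female libraries. Sex and sequencing batch cannot be told apart in the difference.

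Hrh2, the gene of the Gs-coupled H2 receptor, was higher in both female choline groups than in the females without choline. Female IS libraries were at 4.40, 4.44, 3.96 and 4.03 CPM and female ID libraries at 4.58, 3.92, 4.84 and 3.38 CPM. Female ISch libraries were at 6.51, 5.06, 6.57 and 5.73 CPM and female IDch libraries at 6.28, 5.71, 6.47 and 5.56 CPM. Every choline library lay above every library without choline, with 5.06 CPM the lowest of the former and 4.84 CPM the highest of the latter. The share of all genes that separate in this way was not counted. Pair by pair, groups did not overlap for 10.1% of all genes in ISch against IS. The shares were 7.80% in IDch against IS and 11.9% in IDch against ID. In ISch against IS the log2 fold change was 0.50 (SE 0.12, adjusted p = 0.0593). In IDch it was 0.51 against IS (SE 0.11, adjusted p = 0.0646) and 0.52 against ID (SE 0.14, adjusted p = 0.078). These comparisons share libraries, IS in the former pair and IDch in the latter. ID against IS gave -0.01 (interval -0.31 to 0.29).

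Hrh2 had the lowest p of the family in the joint test of the 4 female groups, with F = 11.4 (adjusted p = 0.0128). By that test 5.34% of all genes differed among female groups. All 3 pairwise calls of Hrh2 held in each of their 16 alternatives, and the adjusted p was under 0.05 in 3 or 4 of them. Prox1, a transcription factor of dentate granule cells, was also higher in both female choline groups, by 0.39 in ISch against IS (adjusted p = 0.0227), 0.30 in IDch against IS (adjusted p = 0.0696) and 0.39 in IDch against ID (adjusted p = 0.00559), all on the log2 scale. Prox1 was the only one of the 8 principal neuron markers at the criterion in those comparisons, and the median log2 fold change of the markers tested was 0.06, -0.13 and -0.13. Markers of other cells moved in the same 3 comparisons. Aldh1l1, a folate enzyme of astrocytes, was higher by 0.36 (adjusted p = 0.0215), 0.28 (adjusted p = 0.13) and 0.36 (adjusted p = 0.0346), in the same order. Cx3cr1, the fractalkine receptor of microglia, was lower by -0.23 (adjusted p = 0.121), -0.28 (adjusted p = 0.19) and -0.32 (adjusted p = 0.0926), and both met the criterion throughout. Of the 6 astrocyte markers 1, 2 and 2 met it, all higher except Gja1, which was lower in IDch against IS. The median log2 fold change of the astrocyte markers was 0.12, -0.02 and 0.02. Of the 6 microglia markers 2, 1 and 1 met the criterion, all lower, with medians of -0.12, -0.19 and -0.17. The part of cell makeup in the Hrh2 difference was not tested.

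In males Hrh2 did not move beyond its spread. Means were 6.49 ± 1.42 CPM for IS, 6.67 ± 0.24 for ISch, 6.18 ± 0.653 for FID and 6.23 ± 1.13 for FIDch (SD, n = 4). All groups overlapped, and the log2 fold changes lay between -0.08 and 0.05 with intervals reaching from -0.51 to 0.41. The difference between the sexes in the Hrh2 effect was 0.45 for ISch (adjusted p = 0.292) and 0.60 for FIDch or IDch against IS (adjusted p = 0.243), and neither passed adjustment.

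Hrh3, the presynaptic receptor gene, was lower in IDch than in ID females. Female ID libraries were closely grouped at 68.2, 68.5, 67.8 and 65.5 CPM, and female IDch libraries were at 49.8, 53.0, 55.4 and 40.2 CPM. The groups did not overlap, with means of 67.5 ± 1.34 and 49.6 ± 6.66 CPM (SD, n = 4). The log2 fold change was -0.45 (SE 0.084, interval -0.63 to -0.26, adjusted p = 0.0252 over 14680 genes). The call held in all 16 alternatives, and the adjusted p was under 0.05 in 10 of them. It was 0.0669 to 0.0828 when any ID library was left out and 0.0702 without female IDch replicate 1. With the 4 female groups in a single fit it was 0.079.

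The female IS libraries, at 57.4, 55.6, 59.6 and 65.1 CPM, lay between these groups. ID stood above IS by 0.18 on the log2 scale (SE 0.052, adjusted p = 0.205) and did not overlap it, but the difference was under the fold change that the criterion asks for. Without female IS replicate 4 it was 0.23 (adjusted p = 0.112) and met the criterion. IDch was lower than IS by -0.26 (SE 0.093, adjusted p = 0.265), with the highest IDch library at 55.4 CPM and the lowest IS library at 55.6 CPM. That call was lost without female IS replicate 4 (-0.21, adjusted p = 0.521) and without female IDch replicate 4 (-0.18, adjusted p = 0.202). It was also lost with the 4 female groups in a single fit (-0.26, adjusted p = 0.384).

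Female ISch was the most uneven group for Hrh3, with libraries at 66.9, 36.8, 40.0 and 51.5 CPM. Its log2 fold change against IS was -0.28 (SE 0.15, adjusted p = 0.393). Female ISch replicate 1 decided this value, since without it the log2 fold change was -0.48 (adjusted p = 0.0236). The joint test of the female groups gave F = 5.36 for Hrh3 (adjusted p = 0.0932), and without that library the adjusted p was 0.00457. Male Hrh3 means were 74.4 ± 8.60 CPM for IS, 74.3 ± 7.55 for ISch, 74.7 ± 4.16 for FID and 80.7 ± 6.01 for FIDch (SD, n = 4). The male groups overlapped, and no male comparison of Hrh3 had an adjusted p under 0.467.

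Hnmt, the gene of the enzyme that methylates histamine, was lower in male FIDch than in male IS. The male IS libraries were at 8.32, 9.22, 9.54 and 9.01 CPM. The FIDch libraries were at 6.44, 6.50, 6.52 and 7.60 CPM, of which replicate 2, the shallowest library of the study, held 23 counts. The groups did not overlap, and the log2 fold change was -0.41 (SE 0.14, interval -0.70 to -0.12, adjusted p = 0.449), which met the criterion. Against FID, whose libraries were at 9.42, 9.77, 5.88 and 8.88 CPM, the difference was -0.33 (SE 0.17, adjusted p = 0.329). Without male FID replicate 3, the low one, it became -0.48 (adjusted p = 0.142) and met the criterion. Male ISch libraries were at 10.4, 8.20, 10.9 and 8.47 CPM and overlapped those of IS. The joint test of the male groups gave an adjusted p of 0.308 for Hnmt, the lowest of the family there, and 0.748% of all genes were under 0.05.

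Female Hnmt varied little with diet. Means were 6.50 ± 0.758 CPM in IS, 6.0 ± 0.398 in ISch, 6.49 ± 0.761 in ID and 6.80 ± 0.806 in IDch (SD, n = 4). All groups overlapped their neighbours, and the log2 fold changes lay between -0.11 and 0.07, with intervals reaching from -0.37 to 0.34. The sex difference in the FIDch or IDch effect was 0.48 (adjusted p = 0.235).

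Hrh1, the gene of the Gq-coupled receptor, was at the criterion in none of the 8 comparisons. The male IS libraries spread from 5.15 to 11.4 CPM, and replicate 3 with 34 counts was the lowest library of all 16 males. Against this group FID gave 0.33 (SE 0.19, adjusted p = 0.786) and FIDch 0.32 (SE 0.20, adjusted p = 0.723). Without male IS replicate 4, its highest library, these became 0.48 (adjusted p = 0.82) and 0.46 (adjusted p = 0.681) and met the criterion. With other single libraries left out they fell as low as 0.16 for FID and 0.14 for FIDch. In females IDch libraries were at 9.34, 9.51, 9.58 and 6.30 CPM and the ID libraries around a mean of 10.6 ± 0.551 CPM (SD, n = 4). These groups did not overlap, and the log2 fold change was -0.29 (SE 0.13, interval -0.57 to 0.00, adjusted p = 0.278). It met the criterion without female IDch replicate 2 or 3 (-0.33 in each), and with DESeq2 (-0.28, adjusted p = 0.279). In all, 6 of 16 alternatives met the criterion. With single libraries left out, the log2 fold change ran from -0.33 to -0.16. Female ID against IS was at 0.00 (interval -0.21 to 0.22).

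**Figure D2:**
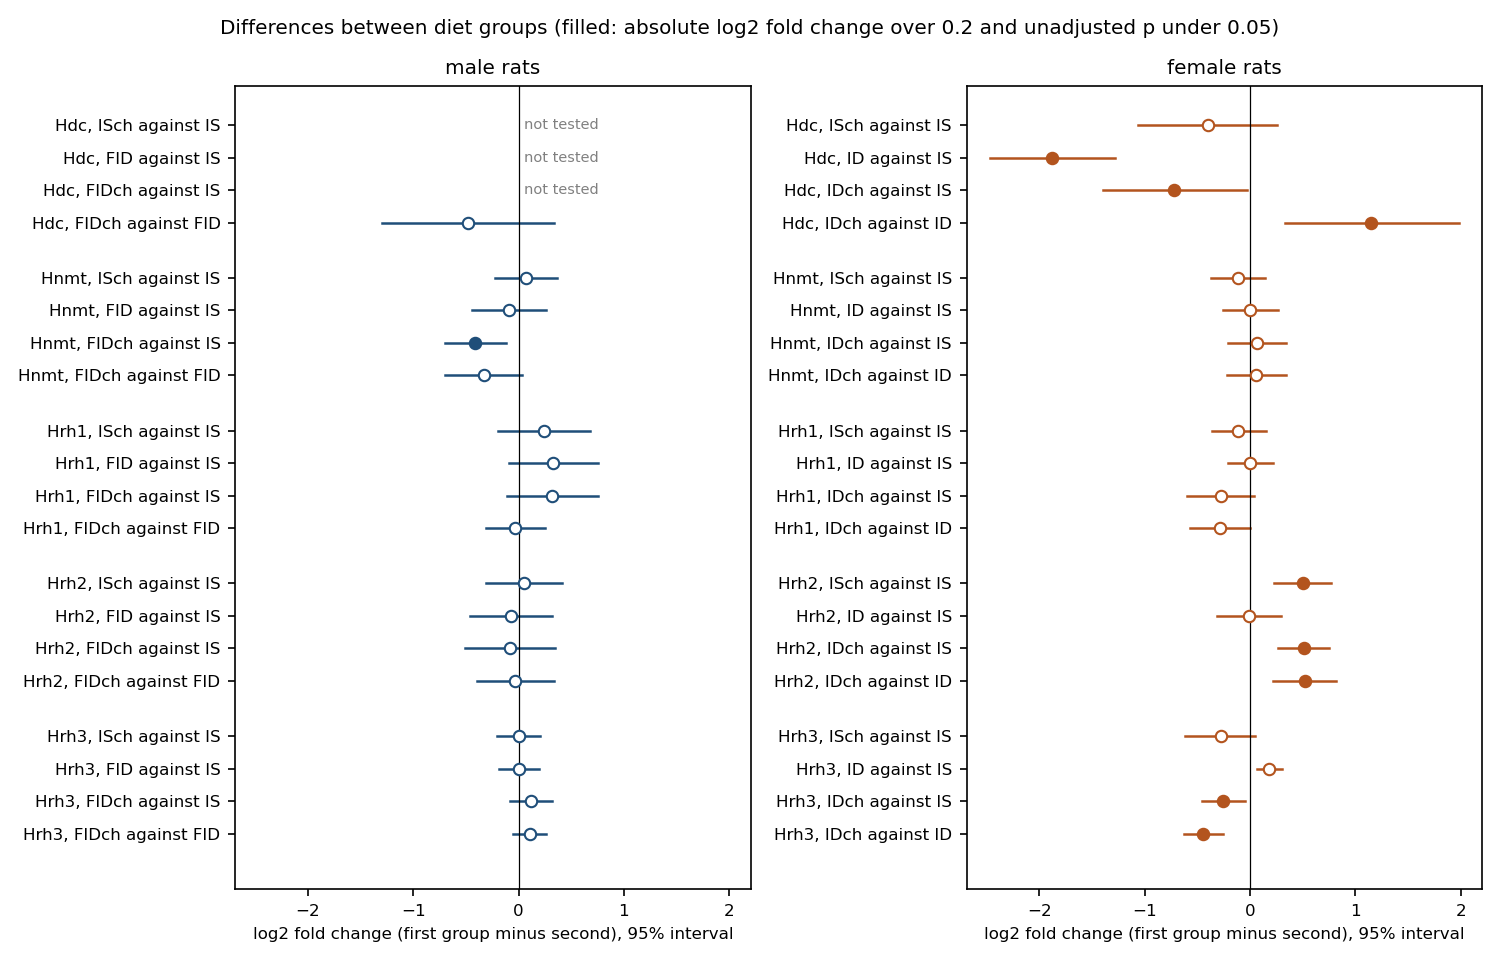
Log2 fold change (horizontal axis) and 95% interval of each histamine gene in the 4 comparisons of males (left) and of females (right), from edgeR's quasi-likelihood test with 4 rats per group. Filled points meet the criterion; 8 points are filled in females, from -1.88 for Hdc in ID against IS to 1.15 for Hdc in IDch against ID, and 1 in males, Hnmt in FIDch against IS at -0.41.

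**Figure D3:**
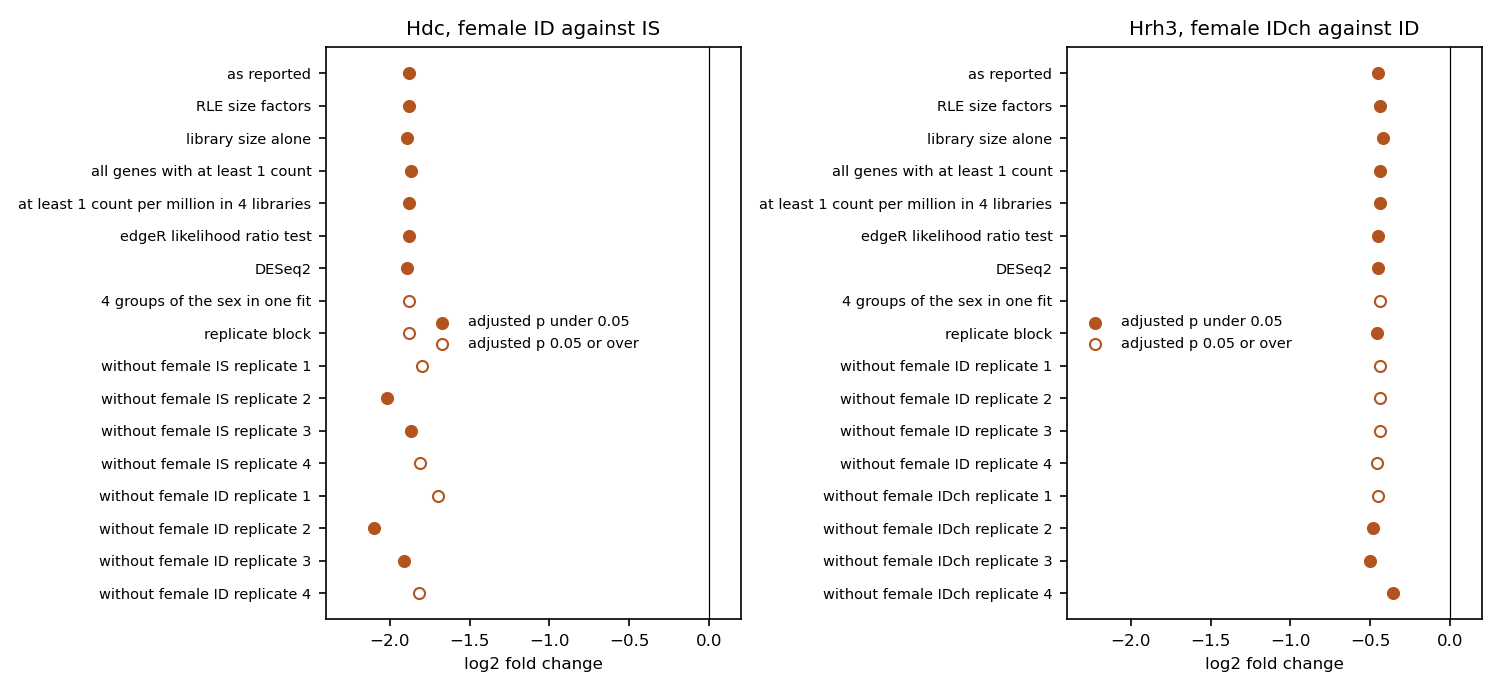
Log2 fold change (horizontal axis) of Hdc in female ID against IS (left) and of Hrh3 in female IDch against ID (right), as reported and under 16 alternatives each (vertical axis). Hdc stays between -2.10 and -1.70 and Hrh3 between -0.50 and -0.36; filled points, 10 of the 16 alternatives in each, have an adjusted p under 0.05.

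Other genes of histamine handling were read from a list of 12 symbols for transport and further breakdown, of which 6 passed the filter. Slc29a4, a plasma membrane monoamine transporter that accepts histamine, was higher in both female choline groups. Its means were 15.8 ± 2.06 CPM in female IS, 16.1 ± 1.5 in ID, 29.1 ± 3.82 in ISch and 26.0 ± 1.86 in IDch (SD, n = 4). The log2 fold changes were 0.88 in ISch against IS (SE 0.11, adjusted p = 0.00364), 0.72 in IDch against IS (SE 0.096, adjusted p = 0.00837) and 0.69 in IDch against ID (SE 0.083, adjusted p = 0.00297). In male ISch against IS it went the other way, by -0.52 (SE 0.14, adjusted p = 0.254). Maoa, a monoamine oxidase, was lower by -0.22 in male FIDch against FID (adjusted p = 0.0882), and Aldh1a1, an aldehyde dehydrogenase, by -0.29 in female ID against IS (adjusted p = 0.404). No other tested gene of the list met the criterion in any comparison, so that each comparison had 0 or 1 call among 6 genes, beside 4.62% to 13.0% of all genes at the criterion.

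Low counts limited the rest of that list. Aoc1, which encodes diamine oxidase, the extracellular enzyme of histamine breakdown, had at most 1 count in a male and 3 in a female library. Hrh4, the receptor gene of blood cells, had 1 count in a male FID library and 0 in the other 31. Slc18a2, the vesicular monoamine transporter, averaged 7.97 to 8.63 CPM in male groups and 0.913 to 1.36 CPM in female groups, a gap in which sex and batch cannot be told apart. It met the criterion in no comparison.

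The 20 symbols of G proteins and effectors through which these receptors signal stood in 21 rows, all tested. At the criterion were 4 of 21 in male ISch against IS, all higher (Itpr1, Prkcb, Adcy9 and Plcb2), beside 8.06% of all genes. There was 1 in male FID against IS (Prkcb; 4.62% of all genes), 1 in FIDch against IS (Adcy9; 6.12%) and 0 in FIDch against FID (13.0%). In females they were 3 in ISch against IS, with Adcy8 and Adcy1 higher and Adcy3 lower (10.3% of all genes), and 1 in ID against IS (6.47%). That one was Adcy8, an adenylyl cyclase stimulated by calcium, which rose by 0.62 in ID (SE 0.092, adjusted p = 0.017), from 17.1 ± 1.98 to 26.3 ± 2.42 CPM (SD, n = 4). IDch against IS had 3, all lower (Itpr1, Prkcb and Adcy9), beside 8.98% of all genes, and IDch against ID had 4, all lower (Adcy5, Adcy8, Prkcb and Adcy9), beside 12.7%. Prkcb, a protein kinase C downstream of Gq, was lower by -0.36 in IDch against ID (SE 0.057, adjusted p = 0.0114). The median log2 fold change of the list was 0.14 in male ISch against IS, 0.03 in FID against IS, 0.04 in FIDch against IS and -0.02 in FIDch against FID. In females it was -0.05 in ISch against IS, 0.03 in ID against IS, -0.06 in IDch against IS and -0.13 in IDch against ID. Over all genes the median lay between -0.01 and 0.01 in each comparison.

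**Figure D4:**
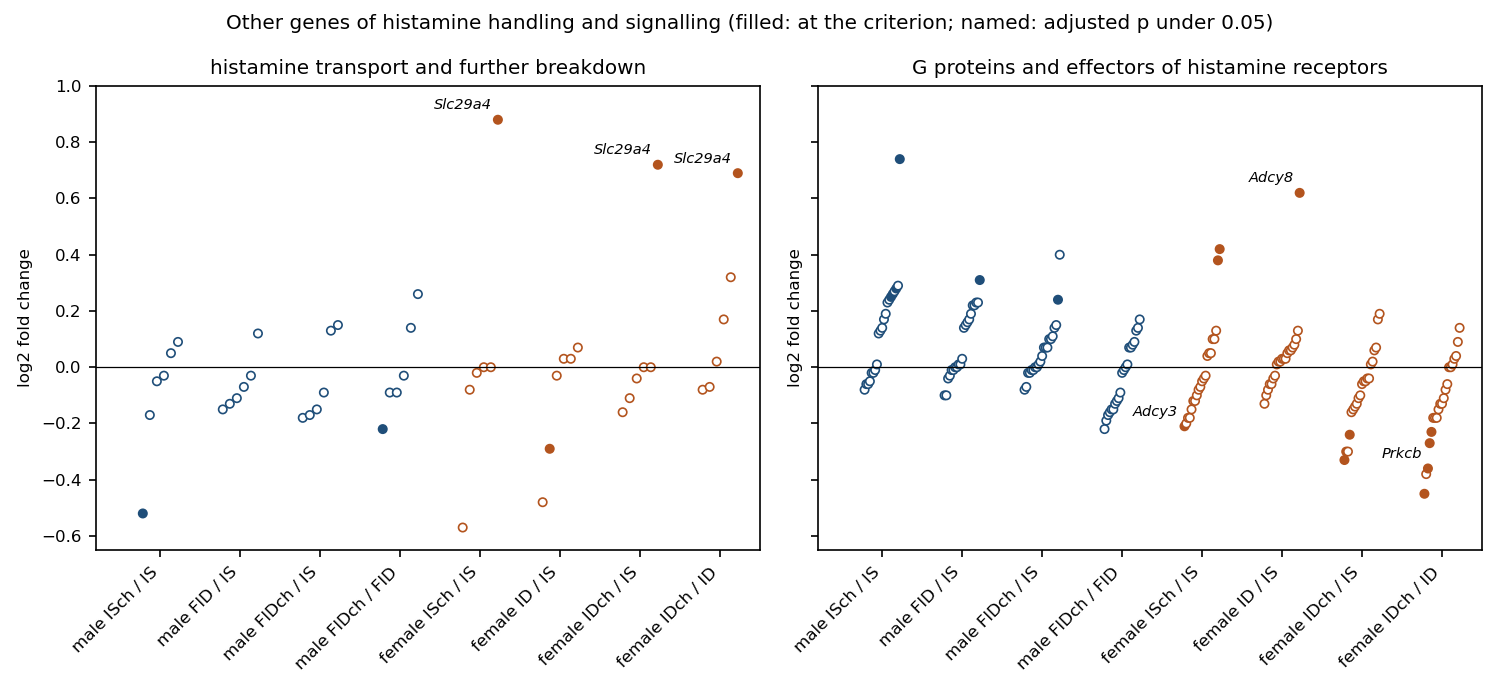
Log2 fold change (vertical axis) of the other histamine handling genes (left, 6 tested) and of G proteins and effectors (right, 21 rows tested) in the 8 comparisons (horizontal axis), with males in blue and females in orange. Filled points meet the criterion and named ones have an adjusted p under 0.05; Slc29a4 stands highest on the left, at 0.69 to 0.88 in the 3 female comparisons that add choline.

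Likeness to other genes was measured as the smaller of the Pearson correlations of log2 CPM over the 16 male and over the 16 female libraries, among 12637 genes. Libraries share their batch, diet groups and depth within a sex, and the values are descriptions. Hrh3 was most like Camkv (r = 0.74 in males and 0.81 in females), Wnt7b (0.71 and 0.95) and Efna3 (0.66 and 0.80). Hrh2 was most like Frem3 (0.81 and 0.74), Ifih1 (0.75 and 0.73) and Rc3h2 (0.66 and 0.65). Hrh1 was most like Wwtr1 (0.69 and 0.74), Taco1 (0.71 and 0.67) and Slc9a8 (0.63 and 0.72). Hnmt was most like Nbr1 (0.61 and 0.59), Kdm6a (0.61 and 0.58) and Mtf2 (0.73 and 0.54). Hdc was not searched, since it averaged 0.933 CPM in males. Between the 5 genes themselves, Hrh3 and Hnmt had r = -0.63 in males and 0.09 in females, Hrh3 and Hdc had 0.31 in males and -0.52 in females, and Hrh3 and Hrh2 had -0.46 in males and -0.49 in females, over 16 libraries each.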

How the data were processed

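RNA of 32 hippocampi was sequenced after TruSeq RNA v2 library preparation. The authors deposited raw counts of reads per gene, without normalization; they checked reads with FastQC, aligned them with HISAT2 and counted them with featureCounts. The submitters' processing notes also name Trimmomatic, Subread and the build Rnor_6.0. The strand setting, the treatment of reads with several matches and the annotation version were not given in the sources used here, and for a kit that does not mark strand, reads of overlapping antisense genes cannot be separated. In RefSeq, Hnmt and Hrh1 each overlap 1 uncharacterized gene. Totals were 3515806 to 9517503 counts per male and 18439999 to 26616318 per female library. Replicates are separate rats per the labels. Over 48 replicate pairs the chi-square per gene was 2.02 to 25.2 times counting noise, so no library was a copy of another of its group. Libraries of different groups were not compared in this way.

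Counts were fitted in R 4.3.3 with edgeR 4.0.16 (TMM, filterByExpr, glmQLFit, glmQLFTest), each pair of groups separately, as the study did. A call was an absolute log2 fold change over 0.2 with an unadjusted p under 0.05; Benjamini-Hochberg adjusted p-values cover all genes tested. The 4 groups of a sex were compared by an F test, and sex differences by an interaction term. Hdc, removed by the filter in 3 male comparisons, was tested by exact permutation. The fits were run on simulated data. The pass rules covered the pair fits and the joint tests of a sex, but not the sex difference. All 5 genes were named in every comparison; of the other lists, genes at the criterion were named. The members and lists were chosen with earlier results of these data known. Alternatives were RLE factors, library size alone, other filters, the likelihood ratio test, DESeq2 1.42.0, a joint fit, the replicate block, adjusted p and leaving out each library. Promoter sequences are from RefSeq, build GRCr8.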

Additional observations from a re-analysis of the deposited data

Results flagged for a closer look

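Within the 40 sets of 4 libraries formed by 5 genes and 8 groups, 3 held a library far from its neighbours by Dixon's ratio, the gap to the nearest library over the whole range, above Dixon's 95% critical value; chance alone gives about 1 in 20. In male FIDch, Hnmt had a ratio of 0.927, since replicate 4 was at 7.60 CPM and the others at 6.44 to 6.52 CPM. In male ISch, Hrh1 had a ratio of 0.885, since replicate 4 was at 7.84 CPM and the others at 10.9 to 11.3 CPM. In female IDch, Hrh1 had a ratio of 0.928, since replicate 4 was at 6.30 CPM and the others at 9.34 to 9.58 CPM; the same library was the lowest of its group for Hrh3, at 40.2 CPM.

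The estimated effect of early iron deficiency on Hdc differed between the sexes by a tested interaction, with -2.80 on the log2 scale (SE 0.49, adjusted p = 0.047, by edgeR's quasi-likelihood test). The adjusted p of the interaction was 0.05 or more in 14 of 22 alternatives. Hdc was lower in all 4 female ID libraries than in any female IS library. In males 4 of 4 FID libraries lay above the IS mean of 0.707 CPM, but the groups overlapped. Male FID ran from 0.831 to 1.68 CPM and male IS from 0.296 to 1.21 CPM. Male counts were 2 to 14 in the 8 libraries concerned, too low for the filter in the male comparison, and the sequencing batch goes with sex. The part of either in the interaction was not tested.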

How the results depend on the processing

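The family had 9 pairwise calls. Those of Hdc in female ID against IS and IDch against ID held in every alternative that gave a p. So did Hrh2 in its 3 female comparisons, Hrh3 in female IDch against ID and Hnmt in male FIDch against IS. With the adjusted p in place of the criterion the number of genes called was 0 in male FIDch against IS, 0 in female ISch and 0 in female IDch against IS, and 1 in female IDch against ID. Keeping genes with at least 1 CPM in 4 libraries gave 1 call in male FID against IS, Hdc. The sex difference of Hdc had no adjusted p under 0.05 with RLE factors (0 genes; adjusted p = 0.0507); DESeq2 gave it no adjusted p. Replicate numbers were not treated as pairs in the main fits. Same-numbered deviations correlated by -0.17 to 0.23, highest in male FIDch against IS, and no comparison had all pairs over 0.1. Such a limit cannot exclude a weak pairing. With the replicate number as a block the counts were 2 in male FIDch against IS, 2 in female ISch against IS, 4 in female IDch against ID (Hrh1 added at -0.30, adjusted p = 0.25), 1 in the joint test of the female groups and 0 for the sex difference of FID or ID, where Hdc was at -2.79 (adjusted p = 0.153); under the block Hdc in female ID against IS was at -1.88 (adjusted p = 0.0651).

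Leaving out single libraries moved the number of genes at the criterion to 0 to 1 in male FID against IS, 1 to 2 in male FIDch against IS, 0 to 1 in male FIDch against FID, 1 to 2 in female ISch and in female ID against IS, 1 to 3 in female IDch against IS and 3 to 4 in female IDch against ID. The joint female test called 1 to 3 genes and the sex difference of FID or ID 0 to 1. Values near 0 changed sign there. The log2 fold change of Hrh2 ran from -0.05 to 0.16 in male ISch, -0.16 to 0.05 in male FID and -0.18 to 0.04 in male FIDch against IS, -0.11 to 0.10 in male FIDch against FID and -0.08 to 0.08 in female ID against IS. Hnmt ran from -0.17 to 0.05 in male FID against IS, -0.01 to 0.12 in female IDch against IS and -0.02 to 0.11 in IDch against ID, and Hrh1 from -0.09 to 0.06 in male FIDch against FID. The causes were not tested. Hdc had 1 to 14 counts per male library, which limits its values there.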
